A study of Homo sapiens with 4 samples.

Results

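The loci of IRF2BP2, ANGPT1, MYO5B and MARCHF1 were examined in ATAC-seq peak lists of HL-60 cells, a human promyelocytic leukemia cell line derived from peripheral blood. ATAC-seq marks open chromatin as the places where the Tn5 transposase can insert sequencing adapters. Each locus was the gene body with 100 kb on either side. Peaks of all 4 libraries that overlapped by at least 1 bp were merged into a site, and the 4 windows held 79 of the 78063 sites of the genome. The genes were chosen by the scores of the control peaks and the absence of ATRA peaks, since they lie next to some of the best-ranked sites that had a peak in both control libraries and in neither ATRA library. The absence of those sites after ATRA therefore defined the loci and is given as a description without a test. The question was whether the sites around them were missing after ATRA as well.

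The ATRA group comprised 2 replicates of HL-60 cells given 1 µM all-trans retinoic acid for 4 days. The control group comprised 2 replicates that received the ethanol vehicle over the same 4 days. In both groups the medium was changed and the addition repeated on day 2. All libraries came from a single cell line, so the spread between replicates says nothing of other cells. The lists held between 42081 and 45903 peaks in the control libraries and ATRA replicate 1, and 63541 in ATRA replicate 2. The median peak width was 416 bp in ATRA replicate 2 and 291 to 328 bp in the other lists. The lists carry no read counts, so the depth of the libraries is unknown. A site that closed in every cell and a site that stayed open in fewer cells cannot be told apart in bulk material, and a place without a listed peak may still hold signal under the threshold of the peak caller. The lists hold no expression values, so the cell type was not checked against expressed markers.

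Retinoic acid activates nuclear retinoic acid receptors and makes HL-60 cells mature along the granulocyte lineage. Regulatory sites in introns and between genes are often used in a single stage of blood cell development, whereas promoters of widely used genes tend to stay open throughout. IRF2BP2 is a transcriptional cofactor that partners with IRF2. ANGPT1 is angiopoietin 1, a secreted ligand of the TEK receptor. MYO5B is an actin-based motor that moves recycling endosomes together with RAB11 proteins. MARCHF1 is a membrane-bound ubiquitin ligase that removes MHC class II molecules and CD86 from the surface of antigen-presenting cells. GATA factors, including regulators of blood progenitors, recognise the letters AGATAA or TGATAA.

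A site was called convincing in a group when overlapping peaks were present in both of its replicates. It was control-specific or ATRA-specific when it was convincing in that group alone, and shared when it was convincing in both. A control-specific site with no peak at all in either ATRA library is called control-only, and an ATRA-specific site with no peak in either control library is called ATRA-only. The sequences at the centre of the sites on which the description turns are printed first, as 200 bp of the plus strand of hg19 (GRCh37). Capitals mark every match to the motifs of GATA, PU.1, RUNX, CEBP, CTCF, AP-1, E-box and ETS on either strand. The first 3 are the best-ranked control-only sites of IRF2BP2, MYO5B and MARCHF1. No sequence of the ANGPT1 window is printed, though its motifs were counted. The next 4 are control-specific neighbours, followed by the ATRA-specific site closest to a best-ranked site and by the promoter site whose rank differed most between the groups. TTATCT and TTATCA are GATA matches on the minus strand.
IRF2BP2 best-ranked site, chr1:234694200-234694399: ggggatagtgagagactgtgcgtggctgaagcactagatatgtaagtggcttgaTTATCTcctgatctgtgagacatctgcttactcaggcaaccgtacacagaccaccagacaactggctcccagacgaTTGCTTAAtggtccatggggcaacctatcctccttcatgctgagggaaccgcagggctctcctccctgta
MYO5B best-ranked site, chr18:47407115-47407314: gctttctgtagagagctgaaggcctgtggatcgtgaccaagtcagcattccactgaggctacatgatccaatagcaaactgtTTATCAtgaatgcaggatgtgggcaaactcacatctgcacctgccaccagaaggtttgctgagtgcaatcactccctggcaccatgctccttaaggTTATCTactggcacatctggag
MARCHF1 best-ranked site, chr4:164816640-164816839: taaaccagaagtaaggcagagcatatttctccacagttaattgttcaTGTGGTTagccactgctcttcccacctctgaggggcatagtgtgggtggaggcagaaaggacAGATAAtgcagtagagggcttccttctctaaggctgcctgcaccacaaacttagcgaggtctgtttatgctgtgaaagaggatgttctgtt
IRF2BP2 control-only site 8.49 kb downstream of the start, chr1:234737337-234737536: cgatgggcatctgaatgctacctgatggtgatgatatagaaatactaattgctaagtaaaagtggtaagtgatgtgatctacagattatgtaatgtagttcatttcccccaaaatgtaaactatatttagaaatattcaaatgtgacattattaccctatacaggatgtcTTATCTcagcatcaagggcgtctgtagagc
IRF2BP2 control-specific site 87.4 kb downstream of the start, chr1:234658469-234658668: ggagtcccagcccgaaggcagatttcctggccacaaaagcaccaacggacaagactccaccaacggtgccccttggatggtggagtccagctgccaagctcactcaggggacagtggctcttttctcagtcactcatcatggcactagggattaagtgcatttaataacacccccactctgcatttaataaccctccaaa
MARCHF1 control-only site 337 kb from the best-ranked site, chr4:164479851-164480050: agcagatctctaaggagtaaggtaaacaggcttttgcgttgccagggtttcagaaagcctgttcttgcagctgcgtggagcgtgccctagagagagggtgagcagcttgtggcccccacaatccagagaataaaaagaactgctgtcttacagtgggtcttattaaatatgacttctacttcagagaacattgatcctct
MARCHF1 control-only site 117 kb from the best-ranked site, chr4:164933899-164934098: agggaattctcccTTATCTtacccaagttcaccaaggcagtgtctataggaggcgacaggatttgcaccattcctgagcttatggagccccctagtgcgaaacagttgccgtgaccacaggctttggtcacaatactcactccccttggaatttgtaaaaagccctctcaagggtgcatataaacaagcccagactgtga
MYO5B ATRA-specific site 9.54 kb from the best-ranked site, chr18:47397577-47397776: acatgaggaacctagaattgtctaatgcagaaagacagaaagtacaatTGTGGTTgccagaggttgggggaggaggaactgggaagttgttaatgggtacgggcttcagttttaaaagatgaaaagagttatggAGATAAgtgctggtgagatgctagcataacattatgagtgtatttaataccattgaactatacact
MARCHF1 internal promoter site, present in all 4 lists, chr4:164534637-164534836: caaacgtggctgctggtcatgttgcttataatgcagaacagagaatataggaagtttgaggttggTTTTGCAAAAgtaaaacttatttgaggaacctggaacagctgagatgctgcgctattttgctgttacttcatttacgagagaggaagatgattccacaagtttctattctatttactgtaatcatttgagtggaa

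The selected sites stood near the top of the control lists and were absent from the ATRA lists. Sites were ranked by their score percentile, which is the position of a peak among all peaks of its own list, with 100 as the highest. Among the 2633 control-only sites of the genome, whose median percentile was 37.7, the selected sites took ranks 1 (IRF2BP2), 2 (MYO5B), 3 (MARCHF1) and 7 (ANGPT1). The sites ranked between 3 and 7 were not selected and are not described here. The lowest-ranked selected site had a mean control percentile of 94.3, and the next in rank, in DGKH, had 94.1.

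The best-ranked site of IRF2BP2 spans chr1:234693739-234694860, between genes and 51.6 kb downstream of the start of IRF2BP2, which lies on the minus strand at chr1:234740015-234745924. Its percentile was 98.5 in control replicate 1 and 97.9 in control replicate 2. Its peaks were 1101 and 1067 bp wide, and 97.6% and 98.7% of the peaks in those lists were narrower. This was the widest of the selected sites.

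The other selected sites lie in introns. That of MYO5B, at chr18:47406936-47407493, had percentiles of 95.0 and 96.9 in control replicates 1 and 2. That of MARCHF1, at chr4:164816338-164817141, had 94.1 and 95.9. That of ANGPT1, at chr8:108276124-108276728, had 94.3 and 94.2. Their peaks were 484 to 695 bp wide, against list medians of 325 and 291 bp in the control libraries. All of them lie on genes of the minus strand: MYO5B spans chr18:47349159-47721534, MARCHF1 spans chr4:164445450-165305202 and ANGPT1 spans chr8:108261710-108510283.

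All 4 selected sites contained a GATA motif in their central 200 bp. The motif was present in 43.7% of all control-only sites (95% Wilson interval 41.8 to 45.6) and in 18.8% of all sites of the genome. The selected site of MYO5B had 2 such matches, and those of IRF2BP2 and MARCHF1 each had 1. IRF2BP2 also had a CEBP match and MARCHF1 a RUNX match within the same 200 bp.

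**Figure D1:**
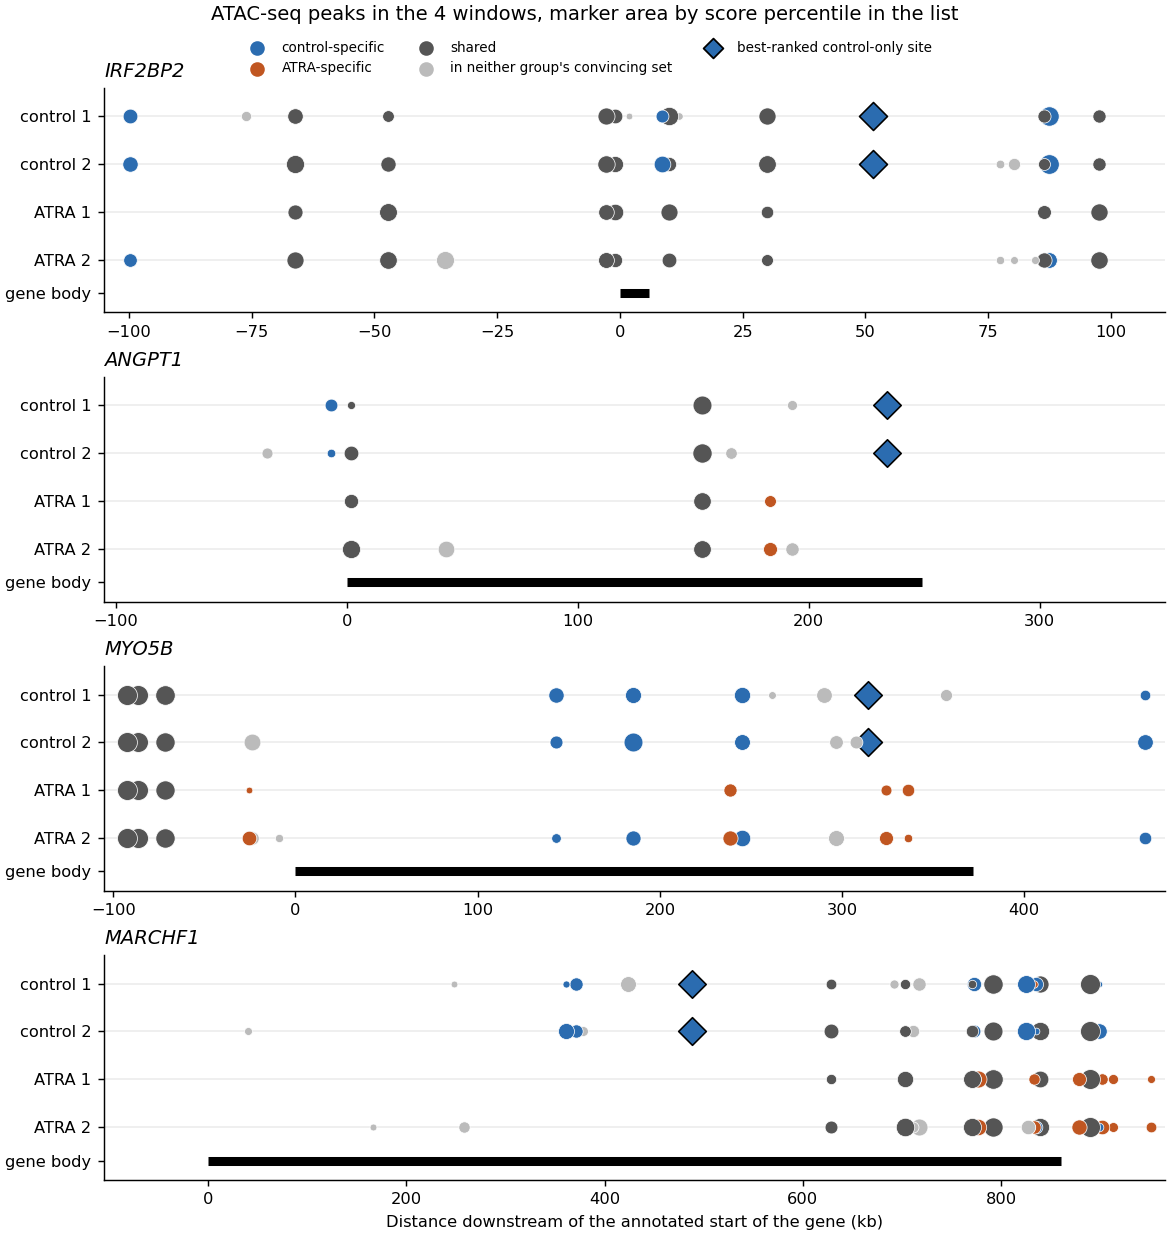
Peaks of each library along the 4 windows, by distance in kb downstream of the annotated start of the gene, with marker area by score percentile and colour by class of site. Diamonds are the selected sites, which appear in the control rows and in neither ATRA row; the black bar is the gene body.

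Neighbouring sites were those of the windows other than the selected ones. Of 75 neighbouring sites, 44 were convincing in at least 1 group, and the remaining 31 were found in 1 list or in 1 list of each group. Of the 44, 14 were control-specific, which is 31.8% (95% Wilson interval 20.0 to 46.6), compared with 16.5% of all convincing sites of the genome. Of these, 5 were control-only (11.4%, interval 4.95 to 24.0, against 5.85% of the genome). A total of 11 were ATRA-specific (25.0%, interval 14.6 to 39.4, against 31.2%). Of these, 10 were ATRA-only (22.7%, interval 12.8 to 37.0, against 15.5% of the genome), so both strict classes were above their genome shares. The other 19 neighbours were shared (43.2%, against 52.3% of the genome). The intervals cover counting error only, since sites of a window share libraries and chromatin. Promoters made up 13.6% of the convincing neighbours and 19.8% of convincing sites overall. Outside promoters the control-specific share was 36.8% of the neighbours and 19.6% of the genome. Without ATRA replicate 1, when the long list of ATRA replicate 2 alone stood for the ATRA group, the control-specific share was 9.84%, against 4.73% of the genome, and the ATRA-specific share was 45.9%, against 53.1%. Without ATRA replicate 2, or without control replicate 2, the share with no ATRA peak was 29.5% and 26.8%, against 14.2% and 12.4% of the genome.

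A comparison closer to the choice of these loci is with sites that also lie near a control-only site. Of the 10948 convincing sites within 100 kb of any control-only site, 17.8% were control-specific. Around the 100 best-ranked control-only sites the share was 21.6% of 514 sites, a set that includes part of these windows. The latter value lies within the interval of the neighbours' share. Distances are not matched, however, since the neighbours lay up to 463 kb from the selected site. Within 50 kb of it, 2 of 8 neighbours were control-specific, and between 50 and 100 kb 1 of 7.

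The control-specific neighbours were not gathered next to the selected sites. Within 50 kb of the selected site, 2 of 8 convincing neighbours were control-specific and 2 were ATRA-specific. These 8 sites came from IRF2BP2, which held both control-specific ones, and MYO5B, which held both ATRA-specific ones. ANGPT1 and MARCHF1 had no convincing neighbour within 50 kb. Between 50 and 100 kb away, 1 of 7 was control-specific. Between 100 and 200 kb the number was 6 of 8, and between 200 and 500 kb it was 5 of 21. Across the genome, the control-specific share of sites around a control-only site was 18.6% within 50 kb, 18.0% at 50 to 100 kb, 17.8% at 100 to 200 kb and 17.3% at 200 to 500 kb. The shares from the windows rest on 7 to 21 sites each, and the 6 sites at 100 to 200 kb came from IRF2BP2 (1), MYO5B (3) and MARCHF1 (2).

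**Figure D2:**
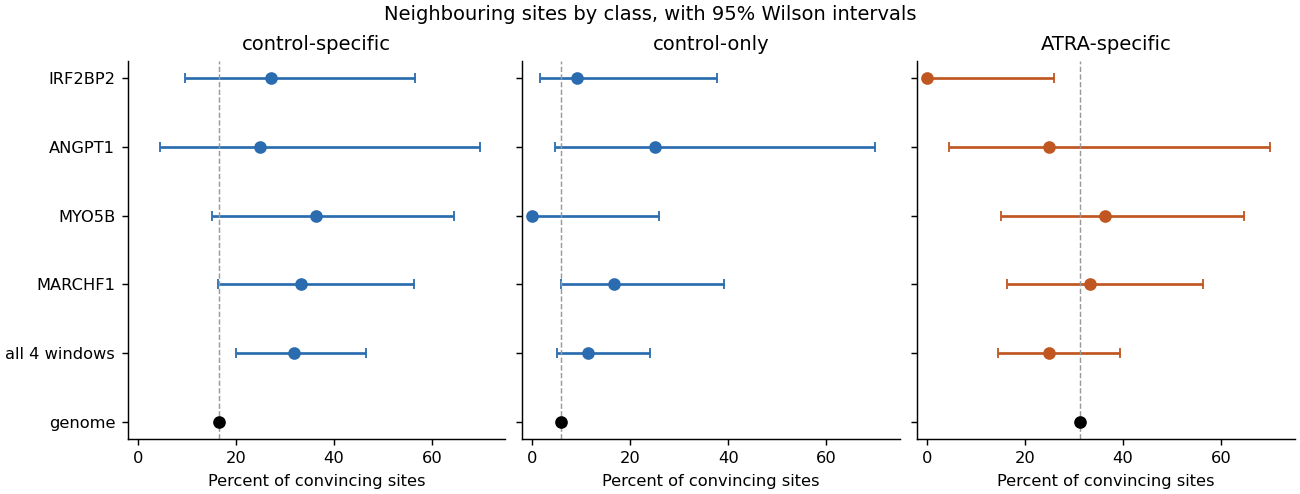
Percent of convincing neighbouring sites that were control-specific, control-only or ATRA-specific, by locus, over the 4 windows and over the genome, where bars are 95% Wilson intervals and the dashed line is the genome value. The intervals of single loci all include the genome value for control-specific sites, and IRF2BP2 had 0 of 11 ATRA-specific sites, below the genome value of 31.2%.

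Peaks at neighbouring sites were counted in each library. Control replicates 1 and 2 had 46 and 44, ATRA replicate 1 had 31 and ATRA replicate 2 had 55. Per 10000 peaks of the list, the numbers were 10.9 and 9.59 in the control libraries and 7.13 and 8.66 in ATRA replicates 1 and 2. Control averaged 10.3 ± 0.952 (SD, n = 2) and ATRA 7.89 ± 1.08 (SD, n = 2), with no overlap between the groups. The difference of 2.37 gave a two-sided exact permutation p = 0.33, which is the smallest that 2 libraries against 2 can give. By count, the ATRA replicates lay at the ends of the order in each window. ATRA replicate 1 had 8 peaks at IRF2BP2, 3 at ANGPT1, 7 at MYO5B and 13 at MARCHF1, fewer than any other library. ATRA replicate 2 had 14, 5, 14 and 22 in the same order, as many as the highest control library at IRF2BP2 and ANGPT1 and more than either at MYO5B and MARCHF1. Per 10000 peaks of the list, both ATRA libraries were below both control libraries at IRF2BP2, ANGPT1 and MARCHF1. At MARCHF1 the nearest values were 3.46 in ATRA replicate 2 and 3.49 in control replicate 2. At MYO5B, ATRA replicate 2 had 2.20, against 2.61 and 2.18 in control replicates 1 and 2.

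Most control-specific neighbours were not absent from every ATRA list. ATRA replicate 2, which had the longest list, had a peak at 8 of the 14 (57.1%), and ATRA replicate 1 at 1 of 14. Over all control-specific sites of the genome, these shares were 57.9% and 6.84%. At 6 of the 8 sites with a peak in ATRA replicate 2, the mean control percentile was above that of ATRA replicate 2, with a median difference of 15.1 points. Over the genome this held for 2112 of 4302 such sites, with a median difference of -0.758 points.

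**Figure D3:**
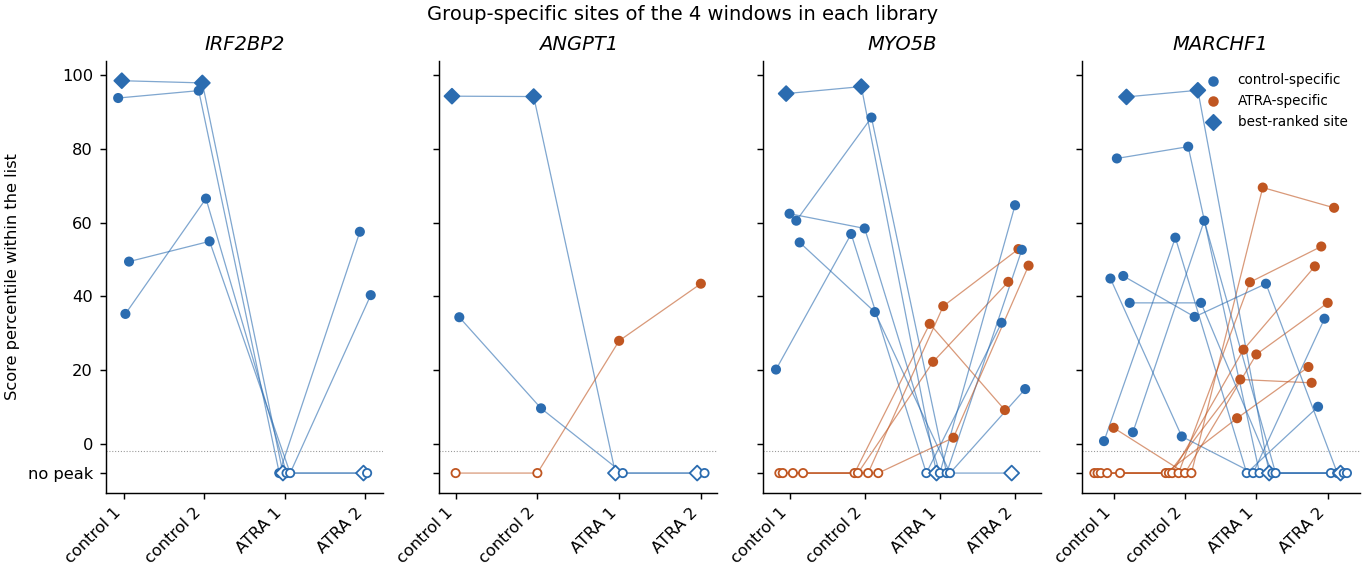
Score percentile of each control-specific and ATRA-specific site of the 4 windows in the 4 libraries, where lines join the values of a site and open symbols at the bottom mark the absence of a peak. The selected sites (diamonds) had control percentiles of 94.1 to 98.5, and all 4 control-specific neighbours of MYO5B have a peak in ATRA replicate 2.

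At IRF2BP2, a second site of high rank in control was missing from ATRA replicate 1 and ranked lower in ATRA replicate 2. The window held 19 sites, of which 8 were shared, 4 were control-specific and 0 were ATRA-specific. The site at chr1:234658171-234658965, 35.7 kb from the selected site and between genes, had percentiles of 93.8 and 95.8 in control replicates 1 and 2 and 57.5 in ATRA replicate 2, with no peak in ATRA replicate 1. Its width was 653 and 732 bp in the control lists and 459 bp in ATRA replicate 2. It lies 87.4 kb from the start of IRF2BP2 and 43.6 kb from that of TARBP1, which encodes an RNA-binding protein and lies outside the window. Its central 200 bp held no match to any of the 8 motifs, as printed above.

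The remaining control-specific sites of IRF2BP2 ranked lower. The control-only site at chr1:234737092-234737781, 8.49 kb downstream of the start of IRF2BP2 and past the end of the gene, had percentiles of 35.2 and 66.5 in control replicates 1 and 2. Its central 200 bp held 1 GATA match, and the whole site held 4. The site at chr1:234845427-234845889, 99.7 kb upstream of the start and within a long non-coding RNA gene, had 49.4, 54.9 and, in ATRA replicate 2, 40.3. The promoter site of IRF2BP2, centred 0.973 kb upstream of its start, was shared. Its percentiles were 48.8 and 61.5 in the control libraries and 64.8 and 45.4 in the ATRA libraries, so the groups overlapped.

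At ANGPT1, only 9 sites were found in 449 kb, and 5 were convincing. The control-only neighbour at chr8:108516693-108517177, 6.65 kb upstream of the start, had percentiles of 34.3 and 9.57 in control replicates 1 and 2. It lies in an exon of a long non-coding RNA gene. The ATRA-only site at chr8:108326765-108327172, in an intron 50.5 kb from the selected site, had 27.9 and 43.4 in ATRA replicates 1 and 2. The intronic site at chr8:108356404-108356843 was shared, with 88.7 and 92.2 in the control libraries and 74.6 and 75.4 in the ATRA libraries. Both ATRA libraries ranked it below both control libraries. The site nearest the start of the gene, at chr8:108508034-108508530, ranked at 7.27 and 49.2 in control and 45.5 and 80.4 in ATRA, and the groups overlapped. All 5 convincing sites of this window, the selected one included, had a GATA motif in their central 200 bp. Over the genome 17.2% of convincing sites had it. Among the sites of the window that were not convincing, only that at chr8:108317390-108317797 had the motif there.

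At MYO5B, the selected site was the only control-only site of 20 in the window. The window held 12 convincing sites, 5 control-specific, 4 ATRA-specific and 3 shared. All 4 of the control-specific neighbours had a peak in ATRA replicate 2. The intronic site at chr18:47536151-47536588 ranked highest among them, with 60.5 and 88.5 in control replicates 1 and 2 and 52.6 in ATRA replicate 2. The intronic site at chr18:47476269-47476812 had 62.4, 58.4 and 64.7, so there ATRA replicate 2 was above both control libraries. The intronic site at chr18:47578138-47578576 had 54.6, 35.7 and 14.8, and the intergenic site at chr18:47255022-47255318 had 20.1, 56.9 and 32.8.

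All 4 ATRA-specific sites of the MYO5B window were ATRA-only, and 2 of them were the convincing sites closest to the selected site. The site at chr18:47397480-47397872, 9.54 kb away in an intron, had 22.2 and 43.9 in ATRA replicates 1 and 2, and its central 200 bp held a GATA and a RUNX match. The site at chr18:47385097-47385462, 21.9 kb away, had 32.5 and 9.10. The sites at chr18:47482569-47483046 and chr18:47746636-47747071 had 37.3 and 52.8, and 1.60 and 48.3. Over the 11 ATRA-specific neighbours of the 4 windows, the median of the mean ATRA percentile was 33.0, against 41.9 for all ATRA-specific sites of the genome. No convincing site lay at any of the 5 annotated coding starts of MYO5B. The 3 shared sites were the promoters of CFAP53, a cilia protein gene, MBD1, which encodes a methyl-CpG binding protein, and CXXC1, which encodes a CpG-binding subunit of a histone methyltransferase complex. Their percentiles were 91.9 to 99.6 in all 4 lists. ACAA2, which encodes a mitochondrial thiolase and also starts in the window, had no site in its promoter.

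At MARCHF1, control-specific and ATRA-specific neighbours were equal in number. The window of 1060 kb held 31 sites, and of its 18 convincing neighbours 6 were control-specific (3 of them control-only), 6 ATRA-specific (5 of them ATRA-only) and 6 shared. The control-only site at chr4:164479707-164480194, in an intron 337 kb from the selected site, had percentiles of 77.4 and 80.6 in control replicates 1 and 2. This was the highest-ranked control-only neighbour of the 4 windows. The intronic control-only sites at chr4:164933824-164934172 and chr4:164944355-164944698, 117 and 128 kb from the selected site, had 38.2 and 38.2, and 3.07 and 60.5. The first of them had a GATA match and the second had no match to any of the 8 motifs.

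The other control-specific sites of MARCHF1 each had a peak in 1 ATRA list. That at chr4:164532419-164532677 had 45.5 and 34.4 in control replicates 1 and 2 and 43.4 in ATRA replicate 1. That at chr4:164469610-164470306 had 44.8 and 1.93 in control replicates 1 and 2. Its 33.9 in ATRA replicate 2 was above the control mean of 23.4. That at chr4:164405986-164406379 had 0.671 and 55.9 in control replicates 1 and 2 and 10.0 in ATRA replicate 2. Each of these sites thus had 1 control peak near the bottom of its list. Of the ATRA-specific sites, the highest was the intronic site at chr4:164527944-164528886, with 69.5 and 64.0 in ATRA replicates 1 and 2. The others had means over the ATRA replicates of 13.9 to 48.6.

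The internal promoter of MARCHF1 ranked higher after ATRA, 282 kb from the selected site. MARCHF1 has 5 annotated coding starts, and the only one with a site in its promoter lies at chr4:164534686, well inside the gene. The site there, at chr4:164534448-164535024, was present in all lists, with 9.07 and 31.9 in control replicates 1 and 2 and 77.6 and 80.7 in ATRA replicates 1 and 2. The difference of the means was -58.7 points (control minus ATRA), and 0.579% of the 23653 sites present in all 4 lists had a lower value. The central 200 bp printed above hold 2 overlapping CEBP matches. The ATRA-specific site at chr4:164527944-164528886 lies 6.27 kb from this start. The intronic site at chr4:164602272-164602810 likewise ranked higher in both ATRA libraries, with 18.6 and 26.8 in control and 63.0 and 84.1 in ATRA. The 3 starts at the far end of the gene, from chr4:165305141 on, had no site in their promoters, and the nearest site was 39.8 kb away in control replicate 2 alone. Of the other coding genes with a start in the window, TMA16, a translation machinery-associated gene, had a shared promoter site at 99.1 to 99.6 in all 4 lists, and TKTL2, a transketolase-like gene, had none in its promoter.

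Sites present in all 4 lists were compared by rank, since their presence was not used to choose the loci. There were 19 of them, all neighbours. A total of 3 ranked lower in both ATRA lists than in either control list (15.8%, against 12.8% of such sites in the genome), and 6 ranked higher (31.6%, against 29.2%). For the remaining 10 the groups overlapped. The site with the largest fall in rank was at IRF2BP2, at chr1:234715690-234716131, 21.6 kb from the selected site, with 71.0 and 75.3 in control replicates 1 and 2 and 32.2 and 28.5 in ATRA replicates 1 and 2. Its difference was 42.8 points, and 1.18% of such sites of the genome had a larger one. At the same locus, the sites at chr1:234648060-234648659 and chr1:234792917-234793486 ranked higher in both ATRA lists, with differences of -34.5 and -35.4 points.

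The median percentile of the 19 sites was 70.1 and 73.0 in control replicates 1 and 2 and 69.9 and 75.4 in ATRA replicates 1 and 2. For all sites of the genome present in the 4 lists, the medians were 68.2 and 70.5 in control and 68.9 and 79.2 in ATRA, so ATRA replicate 2 was also the highest there. The medians of the 19 sites averaged 71.5 ± 2.05 (SD, n = 2) for control and 72.6 ± 3.86 (SD, n = 2) for ATRA. Their difference of -1.13 points was smaller than the spread between replicates (exact permutation p = 1.00, two-sided), and it was 0.315 without control replicate 1. Taken site by site, the median difference (control minus ATRA) was 0.0697 points, against -2.83 over such sites of the genome. The direction thus depended on the way of summarising. The median width was 387 and 433 bp in the control libraries and 391 and 590 bp in the ATRA libraries, which averages 410 ± 32.5 (SD, n = 2) and 490 ± 141 (SD, n = 2). The difference of -80.5 bp gave an exact permutation p = 0.667, and it was 12.2 bp without ATRA replicate 2. Over all sites present in the 4 lists, the median width was 401 and 376 bp in control and 405 and 587 bp in ATRA, so ATRA replicate 2 was wider across the genome as well.

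**Figure D4:**
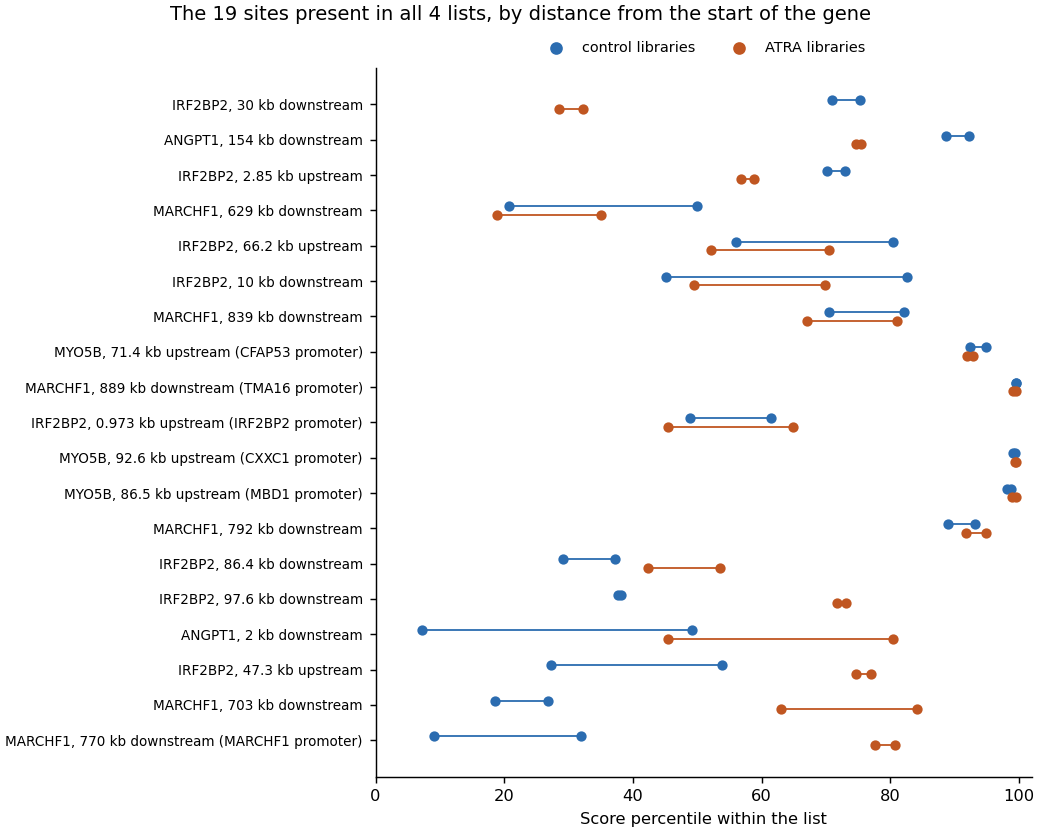
Score percentile of the 19 sites present in all 4 lists, in the control libraries (blue) and ATRA libraries (orange), ordered by the difference of the group means and labelled by locus and distance from the start of the gene. The top site, at IRF2BP2, ranked 42.8 points higher in control, and the internal MARCHF1 promoter at the bottom ranked 58.7 points higher in ATRA.

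The GATA motif was counted at the neighbours as well. In the central 200 bp it was found in 3 of 14 control-specific neighbours (21.4%, 95% Wilson interval 7.57 to 47.6), 5 of 11 ATRA-specific neighbours (45.5%, 21.3 to 72.0) and 5 of 19 shared neighbours (26.3%, 11.8 to 48.8). Across the genome the shares were 30.7%, 14.7% and 14.5%. The genome shares of control-specific and shared sites lay within the intervals of the neighbours. The share of ATRA-specific neighbours was above the genome value, with 11 sites behind it, 3 of the 5 matching sites at MYO5B and 1 each at ANGPT1 and MARCHF1. Without ATRA replicate 1, control-specific neighbours with the motif were 3 of 6 (50.0%). When whole sites were searched, 8 of the 14 control-specific neighbours had a GATA match (57.1%, against 46.4% of the genome). The same search found a match in 8 of 11 ATRA-specific neighbours (72.7%) and 11 of 19 shared neighbours (57.9%). Both shares were also above those of their class in the genome, so the higher whole-site share was not particular to control-specific neighbours.

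The other motifs were each found at a few sites. Of the 44 convincing neighbours, 4 had PU.1 (GAGGAAGT), 3 had CTCF, 2 each had RUNX (AACCACA), CEBP (TTGCNNAA) and E-box (CACGTG), and 1 each had AP-1 (TGACTCA or TGAGTCA) and ETS (CCGGAAGT), whose last letters PU.1 shares. Over the 45026 convincing sites of the genome, the shares were 8.20%, 6.29%, 8.71%, 11.8%, 4.35%, 5.74% and 1.64% in the same order. RUNX was found in 0 of the 14 control-specific neighbours (95% Wilson interval 0 to 21.5%), which includes its share of 11.3% among control-specific sites of the genome. The MARCHF1 site at chr4:164405986-164406379 was the control-specific neighbour with a CTCF match.

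A second control-only site was present in the windows of IRF2BP2 (1), ANGPT1 (1) and MARCHF1 (3), and in none at MYO5B. Of 19375 protein-coding genes with a convincing site in such a window, 25.8% had a control-only site, and 21.9% of those had a second. The windows here differ in length from 206 to 1060 kb, so these counts are not matched for size.

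Windows of related and partner genes were counted in the same way. Of 15 genes, 14 had a convincing site, and HLA-DRA, an MHC class II gene, had 0. A control-specific site was present for 11 of the 14, against 56.1% of protein-coding genes with a convincing site. A control-only site was present for 5, against 25.8%. An ATRA-specific site was present for all 14, against 82.5%. The windows of the 15 genes were 203 to 422 kb long, so these counts are not matched for size either. The control-only sites lay at IRF2, the partner of IRF2BP2, at ANGPT4 and TEK, a ligand of the angiopoietin family and the receptor of ANGPT1, at RAB11FIP2, a RAB11 effector, and at MARCHF8, the closest relative of MARCHF1. ANGPT4 had 2 and the others 1 each. IRF2BP1, MYO5A and RAB11A had 0 control-specific and 5 ATRA-specific sites each.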

How the data were processed

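The 4 libraries were assigned to the control and ATRA groups by their titles. Per the labels and methods, the authors amplified tagmented DNA by PCR, removed adapters, aligned reads to hg19 with Bowtie (the submitters' processing notes name Bowtie2, cutadapt, MACS and MACS2) and called peaks in each library separately with default settings. The deposited score of each peak, from 50.0 to 3100, has no stated scale and was used only for ranks within a list. A longer or deeper library can yield more and wider peaks, and no shift to the Tn5 cut site or duplicate removal is given in the sources used here.

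Sites, classes, windows and motifs were computed with scipy 1.17.1, pandas 2.3.3 and numpy 2.4.6 under Python 3.11.15, with matplotlib 3.10.9 for figures. Genes came from GENCODE release 44 on GRCh37, which is hg19, and the 24 chromosomes of the lists had 0 sites past their ends. Coordinates are 1-based. A promoter site had its centre from 1 kb upstream to 100 bp downstream of a coding start. The classification was tested on 4000 simulated sites, of which 100% received the class they were made with. Groups were compared by exact two-sided permutation over libraries, where p cannot be under 0.33; shares have 95% Wilson intervals. Alternatives were windows of 50 and 200 kb, other overlap, width and score rules, the selected sites added back, single libraries left out and same-numbered libraries as pairs. The members, lists and sites named were chosen with earlier results of these data known. The sites named are the best-ranked one of each window, the group-specific ones, promoter sites of the 4 genes and coding genes with a start in a window, and sites with a difference in rank were picked after their values were seen.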

Additional observations from a re-analysis of the deposited data

How the results depend on the processing

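The share of control-specific neighbours (31.8%) was above the genome share in each setting run over the genome, namely 50% overlap, equal lists, the upper part by score, 200-bp peaks and each library left out. Leaving out single libraries moved it between 9.84% and 46.4%, against 4.73% and 26.7% of the genome in the same settings. The lowest came without ATRA replicate 1, when the long list of ATRA replicate 2 alone stood for the ATRA group. With a library left out, the share with no ATRA peak (11.4%) ranged from 9.84% to 29.5%, the highest without ATRA replicate 2, where the genome share was 14.2%, and it was 26.8% without control replicate 2, against 12.4%. The ATRA-specific share (25.0%) ranged from 17.9% to 45.9% with a library left out, the highest without ATRA replicate 1, where the genome had 53.1%. With a window of 200 kb the control-specific share was 23.1% and the share with no ATRA peak 9.23%, its lowest over all alternatives run.

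The GATA share of control-specific neighbours (21.4%) was 57.1% in whole sites, and 16.0% to 50.0% with a library left out. The difference in median percentile (-1.13) reversed to 1.25 with a window of 200 kb and to 1.64 in the upper part of the lists, and ranged from -8.70 to 0.315 with a library left out. The difference in median width (-80.5 bp) ranged from -138 to 12.2 bp with a library left out, and has no value for peaks set to 200 bp. The difference in peaks per 10000 (2.37) stayed above 0 in every alternative run. One of them added the selected sites back (3.28), which had to raise the difference because of how these sites were chosen. Replicate numbers come from the titles and do not state shared cultures. With same-numbered libraries paired (replicate block), the 3 differences stayed at 2.37, -1.13 and -80.5, with exact sign-flip p of 0.5, 1.00 and 0.5, where 2 pairs cannot give p under 0.5. The shares rest on 44 neighbours and unknown depth and were not tested against the genome. The smallest difference that could be detected was not computed. Of the alternatives' changes, the cause was not tested.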
